A study of Mus musculus with 6 samples.

Results

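The MHC class I genes of the mouse and their look-alikes were followed in MS-5 stromal cells cultured alone and after co-culture with acute myeloid leukaemia (AML) cells. They are 10 genes of the 35968 that have a transcript in the deposited tables. The 8 genes H2-K1, H2-D1, H2-Q4, H2-Q6, H2-Q7, H2-T23, H2-M3 and B2m were listed by family. The remaining pair, Gm7030 and Gm8909, was chosen by its rise in these libraries, so that its change is given as a description, with no test. MS-5 is a mouse bone marrow stromal line and SKM-1 is a human AML line. RNA of MS-5 cells cultured alone was sequenced in 3 libraries (MO1, MO2 and MO3, called MS-5 only). RNA of MS-5 cells separated from SKM-1 cells after 24 hr of direct co-culture was sequenced in 3 more (MC1, MC2 and MC3, called co-culture), plated at a ratio of 4 AML cells to 1 stromal cell, with 750000 AML cells in each ml. Both groups are the same stromal line, and each co-culture held the same AML line. Attached leukaemic cells were to be taken off with PBS and a mild trypsin step, by the methods, before MS-5 cells were collected. Reads were assigned to mouse transcripts only, so that a human read could be counted where it resembled one of them. The labels do not say whether libraries of a group came from separate cultures, and p-values then measure only the spread between these libraries, which may be technical.

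A class I molecule is a heavy chain joined to beta-2 microglobulin, the product of B2m, and it holds a short peptide from inside the cell at the cell surface. The heavy chain is built from exons with set roles. The first exon encodes the leader, exons 2 and 3 encode the domains that hold the peptide, exon 4 encodes an immunoglobulin-like domain that contacts beta-2 microglobulin and the CD8 co-receptor of T cells, exon 5 encodes the membrane span and the last exons the tail. H2-K1 and H2-D1 are the classical genes, found on most cells and read by CD8 T cells. H2-Q4, H2-Q6, H2-Q7, H2-T23 and H2-M3 are non-classical. H2-T23 encodes Qa-1, which shows leader peptides of other class I chains to receptors of natural killer cells, H2-M3 presents peptides that start with formyl-methionine, and H2-Q7 encodes a form of Qa-2. Gm7030 and Gm8909 are gene models in the same complex on chromosome 17, annotated as protein coding. Class I genes differ between mouse strains and the reference is C57BL/6J. The strain behind MS-5 is not given in the sources used here.

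Total estimated counts ran from 23978881 to 27182453 in MS-5 only and from 26258451 to 35694987 in co-culture. A pair of libraries, MO2 and MC3, stood apart from the other 4. Mitochondrial transcripts took 5.92% to 6.07% of counts in that pair and 10.6% to 13.2% elsewhere, and more transcripts had a count there (65170 and 66456, against at most 57350). MC2 also differed from MC1 and MC3. Over 21 leukocyte marker genes the summed level ran from 61.0 to 70.5 CPM (counts scaled to the same TMM-normalized total) in MO1 to MO3, and was 120, 447 and 126 CPM in the co-culture libraries MC1, MC2 and MC3. Of these 21, 16 could be tested and 9 were higher in co-culture, against 3.71% of all genes tested. The 9 had mean levels of at most 0.46 CPM in MS-5 only and passed the filter on low counts through co-culture. A gene so low in MS-5 only is tested only if co-culture is higher, so the share describes the list and no more. None of the 9 calls was made by edgeR when MO1, MO2 or MO3 was left out, with 12 of the list at an unadjusted p under 0.05 in each case. Among the 5 most abundant, Coro1a rose from a mean of 0.45 to 33.2 CPM and Spi1 from 0.33 to 25.0 CPM, Lcp1 (27.8 and 62.7 CPM) and Hcls1 (8.39 and 15.4 CPM) did not pass the test, and Cd68 had 16.4 and 12.9 CPM. In bulk RNA, more cells of a type, more RNA per cell and human reads counted on mouse transcripts cannot be told apart. Other defining markers, named here after their values were seen, were split. Ptprc, the gene of CD45, rose from 0.15 to 8.59 CPM, Laptm5 from 0.084 to 11.7 CPM and Cybb from 0.46 to 11.7 CPM, and Irf8 was at 0 in all MS-5 only libraries and at 3.83 CPM in co-culture. Fcer1g had at most 6 counts and Tyrobp at most 1 in any library. The 12 stromal markers did not pass the test (lowest adjusted p = 0.290 from edgeR). The 5 most abundant of them, Fn1, Vim, Col1a1, Sparc and Cxcl12, had log2 fold changes from -0.09 to 0.39.

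The class I genes are copies of one another, and exon 4, which encodes the immunoglobulin-like domain, shows how near they are. It is 276 bases long in each of the 6 heavy-chain genes printed here, which are those whose levels are described in most detail. Its first 240 bases, coding in each of them, are given 5′ to 3′ on the coding strand, from GENCODE M21 on GRCm38. Capitals mark bases that differ from H2-K1. The stretches lie at chr17:33997321-33997560 (minus strand) in H2-K1, chr17:35265784-35266023 (plus) in H2-D1, chr17:36030858-36031097 (minus) in H2-T23, chr17:37272269-37272508 (plus) in H2-M3, chr17:36127645-36127884 (minus) in Gm7030 and chr17:36165635-36165874 (minus) in Gm8909.
H2-K1: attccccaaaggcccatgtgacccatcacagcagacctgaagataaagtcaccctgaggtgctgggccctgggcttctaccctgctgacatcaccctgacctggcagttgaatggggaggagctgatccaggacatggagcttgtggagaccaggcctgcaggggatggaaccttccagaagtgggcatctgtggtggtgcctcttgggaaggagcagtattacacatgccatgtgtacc
H2-D1: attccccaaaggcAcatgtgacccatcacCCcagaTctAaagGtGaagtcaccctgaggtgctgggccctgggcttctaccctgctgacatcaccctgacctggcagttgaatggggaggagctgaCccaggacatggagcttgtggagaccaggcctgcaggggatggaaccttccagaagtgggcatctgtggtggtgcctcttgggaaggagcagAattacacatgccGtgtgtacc
H2-T23: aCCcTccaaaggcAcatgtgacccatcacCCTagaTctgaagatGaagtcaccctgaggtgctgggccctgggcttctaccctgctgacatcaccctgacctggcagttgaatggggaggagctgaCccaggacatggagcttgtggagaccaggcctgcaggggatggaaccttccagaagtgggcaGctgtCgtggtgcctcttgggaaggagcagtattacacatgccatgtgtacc
H2-M3: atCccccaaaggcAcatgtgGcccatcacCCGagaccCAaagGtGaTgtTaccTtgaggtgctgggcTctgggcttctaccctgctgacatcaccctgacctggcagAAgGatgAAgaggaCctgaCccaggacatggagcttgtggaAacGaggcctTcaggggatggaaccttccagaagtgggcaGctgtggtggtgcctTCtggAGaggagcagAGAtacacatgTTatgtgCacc
Gm7030: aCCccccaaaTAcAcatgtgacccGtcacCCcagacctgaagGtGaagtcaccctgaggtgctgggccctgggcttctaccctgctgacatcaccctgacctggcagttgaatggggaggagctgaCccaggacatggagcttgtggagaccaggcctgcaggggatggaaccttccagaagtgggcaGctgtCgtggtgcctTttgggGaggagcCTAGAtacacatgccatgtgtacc
Gm8909: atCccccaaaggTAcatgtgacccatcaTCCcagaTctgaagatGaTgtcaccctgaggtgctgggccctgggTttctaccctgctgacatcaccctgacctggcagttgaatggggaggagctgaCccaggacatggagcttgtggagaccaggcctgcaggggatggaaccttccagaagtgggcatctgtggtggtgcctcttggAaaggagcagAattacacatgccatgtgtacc
H2-D1 differed from H2-K1 at 10 of the 240 bases, H2-T23 at 12, Gm8909 at 13, Gm7030 at 20 and H2-M3 at 35. Gm7030 and Gm8909 were each closer to H2-D1 and H2-T23 than to each other. The pair shared 92.1% of these bases, while Gm7030 shared 94.2% with H2-T23 and Gm8909 shared 96.2% with H2-D1. The longest stretch identical to H2-K1 was 91 bases in H2-D1, 81 in H2-T23, Gm7030 and Gm8909, and 39 in H2-M3.

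Kallisto assigns a read by the 31-base words it shares with each transcript, so the words of the members were looked up in every matched transcript of the deposited tables. The most widely shared word of exon 4 of H2-K1, at chr17:33997380-33997410, is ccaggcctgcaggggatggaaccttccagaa. It occurs in 25 genes, 7 of them members. Of the 210 words in the printed stretch of H2-K1, 82 occur in no other gene. B2m stands outside the family in sequence, as all 830 words of its transcript are its own. The single H2-M3 transcript is nearly as distinct, with 1343 of 1408 words (95.4%) found in no other gene. The share is 76.0% for the full-length coding transcript H2-K1-205, 72.5% for H2-D1-202, 51.5% for H2-T23-201 and 56.6% for H2-Q4-201. Gm7030 is the least distinct member, with a share from 27.0% to 27.4% over its 3 transcripts. In Gm7030-202, 238 of 869 words are found in no other gene, 585 are shared with Gm11127 and 133 with H2-T23. Of the 572 words of Gm8909-205, 383 are found in no other gene. Where words are shared, a read can be split between genes, so the levels of the heavy-chain genes other than H2-M3 are uncertain to that extent, those of Gm7030 most of all. Words of human transcripts were not looked up, so these shares do not cover human reads, for H2-M3 or any other member.

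**Figure D1:**
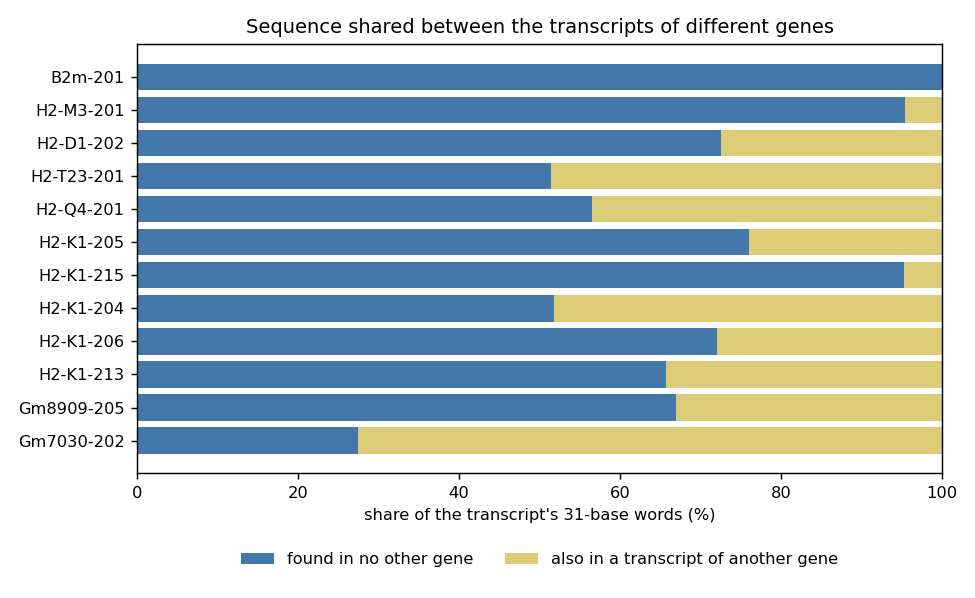
Each bar is a transcript, and the axis is the share of its 31-base words, in percent, that occur in no other gene (blue) or also in a transcript of another gene (yellow). B2m-201 reaches 100%, H2-M3-201 95.4% and the 3′ end transcript H2-K1-215 95.3%, while Gm7030-202 reaches 27.4%.

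In MS-5 only, the family was ordered by level, with B2m on top, the classical heavy chains next and the non-classical ones below. Levels between genes are compared in TPM (which also allows for transcript length), as the mean ± SD of 3 libraries. B2m stood at 464 ± 177 TPM, H2-K1 at 116 ± 41.4, H2-D1 at 50.8 ± 18.0, H2-T23 at 19.8 ± 6.63 and H2-M3 at 5.81 ± 2.63. None of these neighbours overlapped over the libraries. H2-Q4 (1.73 ± 0.58 TPM) and H2-Q7 (1.63 ± 0.15 TPM) overlapped with each other, and H2-Q6 was lower, at 0.23 ± 0.05 TPM. Gm8909 had a single count in MO2 and 0 in MO1 and MO3, and Gm7030 was at 0 in each of them. In co-culture B2m (482 ± 86.1 TPM) and H2-K1 (331 ± 206 TPM) overlapped. H2-D1, Gm8909, H2-M3, H2-T23 and Gm7030 followed at 79.2, 60.1, 55.2, 35.0 and 34.8 TPM, each overlapping with the next. H2-Q7, H2-Q4 and H2-Q6 were the lowest members in co-culture.

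The comparison of co-culture with MS-5 only asks how MS-5 cells change in contact with AML cells. H2-M3 and H2-T23 rose, H2-K1 and H2-D1 were higher in every co-culture library but did not pass the test, and H2-Q4, H2-Q7 and B2m overlapped between the groups. Of the 7 family genes that passed the filter on low counts, 2 had an adjusted p under 0.1, both of them higher, against 4.38% of the 13221 genes tested (3.71% called higher). In 4 of the 7 the lowest co-culture library was above the highest of MS-5 only, which held for 11.6% of all genes tested. With so few genes these counts describe the list and no more. The median log2 fold change of the 7 was 0.66, and that of all genes tested was -0.02. H2-Q6 was the family gene left out by the filter, with 3, 6 and 4 counts in MO1 to MO3 and 2, 3 and 8 in MC1 to MC3.

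**Figure D2:**
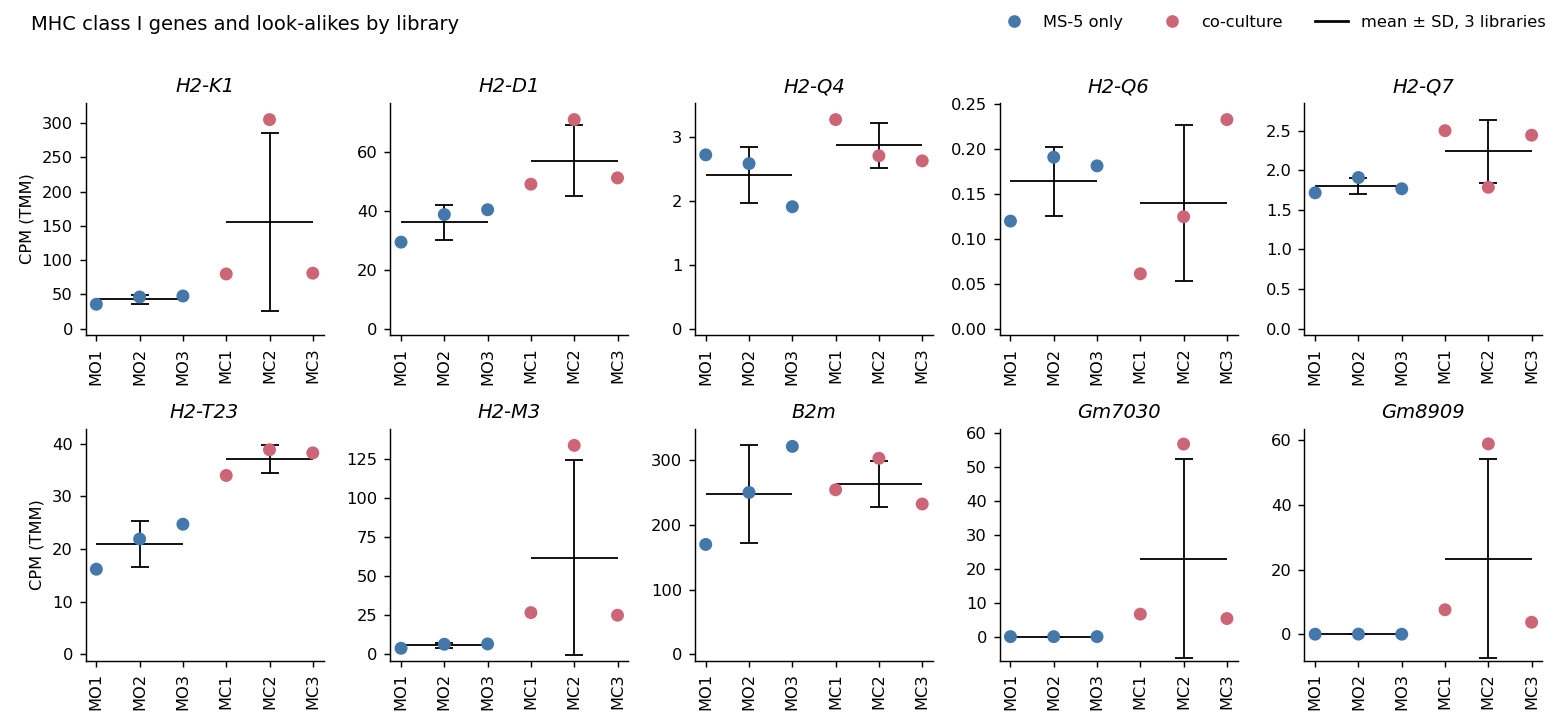
Each panel is a gene, with its level in CPM (linear axis, own scale) in the 3 MS-5 only (blue) and 3 co-culture libraries (red), and black lines for the mean ± SD. The 4 genes H2-K1, H2-M3, Gm7030 and Gm8909 have their highest point in MC2, far above MC1 and MC3, whereas H2-T23 lies between 34.0 and 38.8 CPM in all co-culture libraries.

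H2-T23 (chr17:36029773-36032855, minus strand), the gene of Qa-1, had 16.2, 21.9 and 24.7 CPM in MO1, MO2 and MO3, and 34.0, 38.8 and 38.3 CPM in MC1, MC2 and MC3. The groups did not overlap, and the 3 co-culture libraries were close to each other. The log2 fold change was 0.82 ± 0.19 (SE, edgeR adjusted p = 0.0907). The call was lost when any one of the 6 libraries was left out, with an edgeR adjusted p of 0.300, 0.149 and 0.290 without MO1, MO2 and MO3 and of 0.182, 0.268 and 0.171 without MC1, MC2 and MC3, while the log2 fold change stayed between 0.70 and 0.96. Within the pair of libraries that stood apart, MC3 was above MO2 by 0.80 on the log2 scale, and among the other 4 libraries the co-culture mean was above the MS-5 only mean by 0.83. The summed TPM of its transcripts also kept the groups apart, at 13.1 to 26.4 in MS-5 only and 27.9 to 46.7 in co-culture.

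H2-M3 (chr17:37270220-37274484, plus strand), which presents formylated peptides, had 3.87, 6.46 and 6.66 CPM in MS-5 only and 26.7, 134 and 25.0 CPM in MC1, MC2 and MC3. All co-culture libraries were higher, and MC2 stood far above MC1 and MC3. The log2 fold change was 3.45 ± 0.75 (SE, edgeR adjusted p = 0.0874). Leaving out MC2 lowered it to 2.19, and the adjusted p was then 0.0314. The call was lost without MO1, MO2 or MO3, with edgeR adjusted p-values of 0.303, 0.149 and 0.290. MC3 was above MO2 by 1.95 on the log2 scale. Of the leukocyte markers named above, Coro1a, Spi1, Ptprc, Laptm5, Cybb and Irf8 were also highest in MC2, as were Lcp1 and Hcls1, which did not pass. Cd68 was lower in co-culture on average, and Fcer1g and Tyrobp had few counts. The part of the leukocyte markers in the rise of H2-M3 was not tested.

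H2-K1 (chr17:33996017-34000347, minus strand) had 35.4, 46.1 and 47.5 CPM in MS-5 only and 79.6, 305 and 80.8 CPM in MC1, MC2 and MC3. MC1 and MC3 were alike, both were above all MS-5 only libraries, and MC2 was much higher still. The log2 fold change was 1.85 ± 0.56 (SE, edgeR adjusted p = 0.180), which did not pass. Without MC2 it was 0.90 (adjusted p = 0.130).

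H2-D1 (chr17:35262730-35267499, plus strand), the second classical gene, had 29.3, 38.7 and 40.3 CPM in MS-5 only and 49.0, 70.9 and 51.1 CPM in co-culture. The groups did not overlap in CPM, and MC2 was again the highest. The log2 fold change was 0.66 ± 0.21 (SE, edgeR adjusted p = 0.193), and it was 0.47 without MC2. In TPM the groups overlapped, since MC1 (59.2) lay below MO2 (70.2). With a term for the pair MO2 and MC3, edgeR's adjusted p was 0.0708 for H2-K1, 0.0573 for H2-D1, 0.0219 for H2-T23 and 0.0315 for H2-M3, so that all 4 passed, in a fit that called 3999 genes.

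B2m (chr2:122147686-122153083, plus strand), the shared light chain, had 170, 250 and 321 CPM in MS-5 only and 254, 303 and 232 CPM in co-culture. The co-culture range lay inside that of MS-5 only. The log2 fold change of B2m was 0.09 ± 0.26 (SE, edgeR adjusted p = 0.955), and the sign turned without MO1 (-0.10) or without MC2 (-0.03). H2-Q4 (2.40 ± 0.43 and 2.86 ± 0.35 CPM) and H2-Q7 (1.80 ± 0.10 and 2.25 ± 0.40 CPM) had log2 fold changes of 0.25 and 0.32, with standard errors of 0.28 and 0.29. Both are low, at 39 to 107 counts per library.

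The higher H2-K1 level was spread unevenly over its transcripts. Of the 16 H2-K1 transcripts in the tables, 9 had a count, and 3 of them, H2-K1-204, H2-K1-206 and H2-K1-213, were at 0 in all MS-5 only libraries. Those 3 share exon 3 and all or part of exon 4, and lack exons 7 and 8. H2-K1-204 had 408, 732 and 374 counts in MC1, MC2 and MC3, and H2-K1-206 had 283, 1055 and 237. H2-K1-213, an annotated retained intron transcript, had 6.3, 4210 and 17.7 counts, so that nearly all of it was in MC2. It has no 31-base word that is its own, as each also occurs in another transcript. The same holds for the 3′ end transcript H2-K1-215. Words found in a single transcript number 28 of 1540 in the full-length H2-K1-205, 76 of 450 in H2-K1-204 and 78 of 862 in H2-K1-206.

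The full-length coding transcript H2-K1-205 had 18.6, 23.5 and 25.0 CPM in MS-5 only and 37.9, 34.4 and 38.5 CPM in co-culture. The groups did not overlap and MC2 was the lowest of the co-culture libraries. The log2 ratio of the group means was 0.72. H2-K1-215, which covers exons 7 and 8 at the 3′ end, had 14.0, 19.5 and 19.6 CPM in MS-5 only and 18.8, 20.1 and 20.5 CPM in co-culture, with overlapping groups. Together the 3 transcripts that were at 0 in MS-5 only took 26.7% of the gene's level in MC1, 81.7% in MC2 and 22.6% in MC3. With their level left out, the log2 ratio of mean CPM fell from 1.85 to 0.45, and the libraries were at 35.5, 46.0 and 47.5 CPM in MS-5 only and 58.3, 55.8 and 62.5 CPM in co-culture. The groups remained apart and MC2 was then the lowest of the co-culture libraries. This split was made after the values were seen and carries no test. Kallisto divides shared reads between the transcripts of a gene by estimation, so levels of single transcripts are less certain than their sum.

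**Figure D3:**
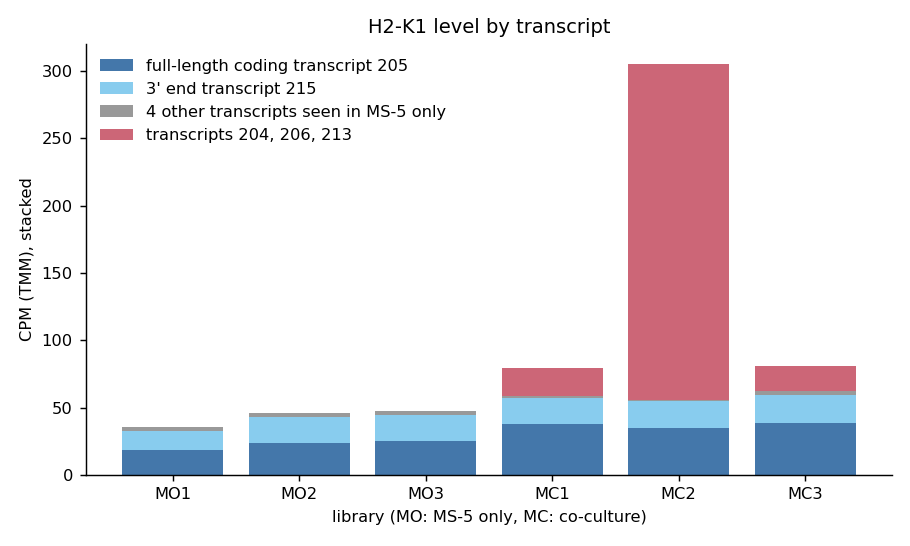
Bars are the 6 libraries and the axis is the summed level of H2-K1 in CPM, stacked by transcript. The part from transcripts 204, 206 and 213 (red) is 0 in MO1, MO2 and MO3 and 21.3, 249 and 18.3 CPM in the co-culture libraries, while the rest stays between 35.5 and 62.5 CPM in all libraries.

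The look-alikes were read in co-culture and almost nowhere else, by the way they were chosen. Gm7030 (chr17:36109719-36129425, minus strand) had 0 counts in each MS-5 only library, and 6.62, 56.7 and 5.33 CPM in MC1, MC2 and MC3. With a floor of 3 counts per MS-5 only library, its mean in co-culture was at least 196-fold higher, and MC3, the lowest co-culture library, at least 45.5-fold. All of its counts were placed on transcript Gm7030-202, although each word of that transcript also occurs in another transcript. Gm8909 (chr17:36164443-36168537, minus strand) had 7.57, 58.9 and 3.70 CPM in co-culture. It had a single count over the MS-5 only libraries and 1794 over the co-culture libraries. Of its counts, 248, 1411 and 112 in MC1, MC2 and MC3 lay on Gm8909-205, a processed transcript of 602 bases.

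The members fell apart by how evenly the co-culture libraries rose. The measure is how far MC2 lay above the MS-5 only mean, over the average of the same distance in MC1 and MC3. It was 10.5 for Gm8909, 9.50 for Gm7030, 7.04 for H2-K1 and 6.34 for H2-M3, which were thus several-fold higher in MC2. It was 2.50 for H2-D1, 1.18 for H2-T23 and 0.55 for H2-Q4. H2-Q6, H2-Q7 and B2m had no excess in MC2 or none in MC1 and MC3 together. Among the 4093 genes tested that had an excess in both, the median ratio was 1.29, and among genes called higher it was 5.98. The 14 leukocyte markers that were tested and had an excess had ratios from 1.23 to 12.2, those of the 9 that rose ran from 4.00 to 7.31 (median 5.45), and the 6 stromal markers with an excess had ratios from 0.27 to 1.02. Within H2-K1, the ratio was 12.6 for the 3 transcripts at 0 in MS-5 only, 0.76 for H2-K1-205, and 0.74 for all transcripts seen in MS-5 only. In TPM, the ratio of H2-D1 moved to 0.88 and that of H2-T23 to 0.60, while those of Gm8909, Gm7030, H2-M3 and H2-K1 ran from 4.49 to 8.66. The ratio of H2-Q4 rests on few counts, as it was 0.18 without MO3 and 0.10 in CPM by library size, and in TPM MC2 (1.65) lay below the MS-5 only mean (1.73). The part of the leukocyte markers in these differences was not tested.

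**Figure D4:**
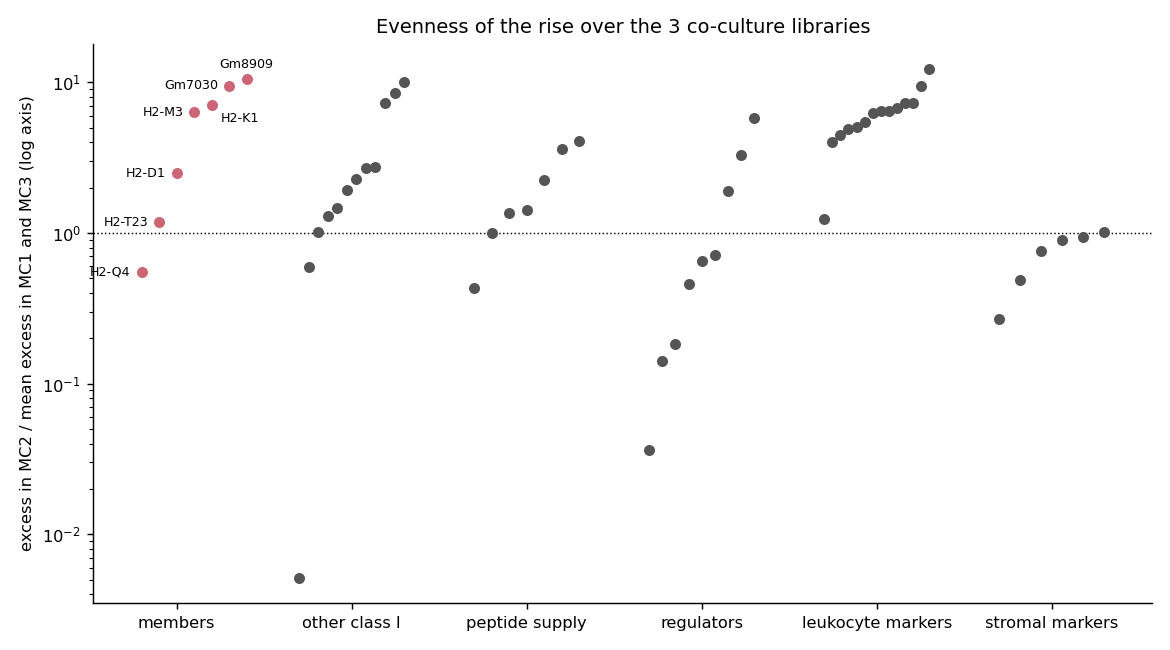
Each point is a gene, by list, and the log axis is the excess in MC2 over the mean excess in MC1 and MC3, where 1 (dotted line) means an even rise. Gm8909 (10.5), Gm7030 (9.50), H2-K1 (7.04) and H2-M3 (6.34) are the 4 highest members, the tested leukocyte markers run from 1.23 to 12.2, and H2-T23 (1.18) lies near the dotted line.

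Among other MHC class I and class I-like genes, some were highest in MC2 and others even. Of 36 listed, 32 were in the tables and 15 could be tested. The test was passed by 2, both higher, and 13 of the 15 log2 fold changes were above 0 (median 0.54). Of all genes tested 4.38% passed, and 6276 of 13221 had a log2 fold change above 0. H2-K2, an unprocessed pseudogene near H2-K1, had 0.04, 0.51 and 0.32 CPM in MS-5 only and 6.41, 41.6 and 5.50 CPM in co-culture. For H2-K2 the log2 fold change was 5.88 ± 1.16 (SE, edgeR adjusted p = 0.0775) and it was highest in MC2, with a ratio of 7.29. With 1, 16 and 7 counts in MO1, MO2 and MO3, H2-K2 passed the filter on low counts through co-culture. Its call is thus a description and no support for a rise of the list. Mr1, which shows vitamin B metabolites to mucosal-associated invariant T cells, had 11.7, 15.1 and 15.2 CPM in MS-5 only and 22.1 to 23.6 CPM in co-culture. Its rise was even, with a ratio of 1.02 and a log2 fold change of 0.71 ± 0.16 (SE, edgeR adjusted p = 0.0875). Without MO1, MO2 or MO3 no gene of this list passed. H2-Q5 and Gm10499, named after their values were seen, did not pass (adjusted p = 0.116 and 0.115 from the same test) and had ratios of 9.97 and 8.52. Like Gm7030 and Gm8909 they lie among near-copies, so their levels are uncertain.

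Most genes that supply and load peptides had small log2 fold changes. All 15 were tested, 1 rose and 14 did not pass, and the median log2 fold change was 0.06. Npepps, the puromycin-sensitive aminopeptidase, had 97.2, 85.0 and 91.0 CPM in MS-5 only and 157, 147 and 137 CPM in co-culture (log2 fold change 0.69 ± 0.13, SE, edgeR adjusted p = 0.0734). It was even over the co-culture libraries, and no gene of this list passed when any library other than MC3 was left out. The peptide pump genes Tap1 and Tap2 had log2 fold changes of 0.13 and 0.06, the tapasin gene Tapbp 0.21, and the immunoproteasome genes Psmb8, Psmb9 and Psmb10 0.24, 0.15 and 0.02. None of these passed. A share of 6.67% called is close to the 4.38% of all genes.

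Of 15 regulators of class I transcription, none passed edgeR's test, 1 had an unadjusted p under 0.05 and 11 had a log2 fold change above 0 (median 0.16). DESeq2's Wald test called 1. Over all 13221 genes, 1885 had an unadjusted p under 0.05 and DESeq2 called 1268, so these counts do not set the regulators apart. The gene with the unadjusted p under 0.05 was Irf1, an interferon-responsive activator of class I genes, with 47.1, 66.4 and 49.9 CPM in MS-5 only and 82.9, 78.3 and 99.0 CPM in co-culture. The groups did not overlap, and Irf1 had a log2 fold change of 0.67 ± 0.18 (SE, edgeR adjusted p = 0.134). Nlrc5, the class I transactivator, is named here after its values were seen. It had 3.19, 18.4 and 5.21 CPM in MS-5 only and 5.22, 5.98 and 18.8 CPM in co-culture, so that it was high in MO2 and MC3, the pair that stood apart, and not in one group.

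**Figure D5:**
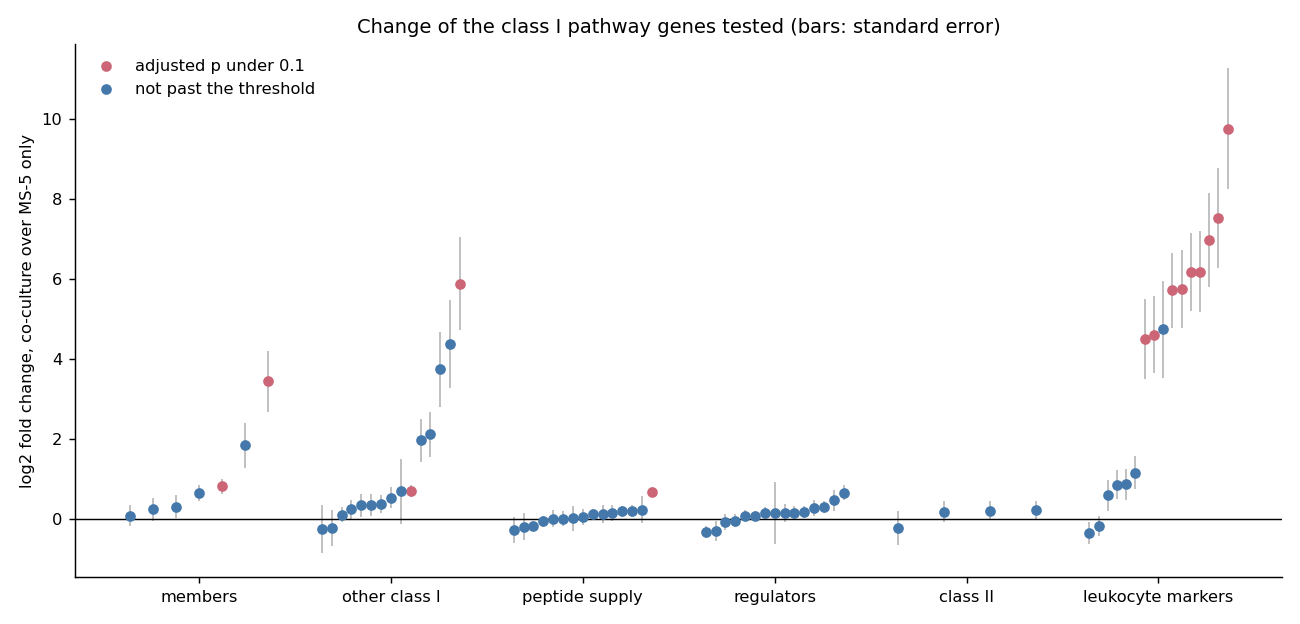
Each point is a gene tested, by list, with its log2 fold change of co-culture over MS-5 only and its standard error, and red marks an adjusted p under 0.1. H2-T23 (0.82) and H2-M3 (3.45) are the red points among the members, and the peptide supply genes lie near 0 except Npepps (0.69).

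The promoters of the members differ in which class I elements they hold. Windows from 250 bases before to 50 after the start, from RefSeq on GRCm38.p6 and for the first start listed, were searched on both strands for GATTCCCC (the NF-kB part of enhancer A), TGACGC (a half-site in the X2 box), GAAANNGAAA (the core of an interferon-stimulated element) and ATTGG (the CCAAT box). All 10 members matched by symbol. H2-K1, H2-D1 and H2-M3 hold the first, second and last of these, H2-Q6 holds GATTCCCC and ATTGG, and H2-Q4 holds TGACGC and ATTGG. H2-T23, B2m and Gm7030 hold GAAANNGAAA and ATTGG, whereas H2-Q7 and Gm8909 hold only ATTGG. Of 32851 promoter windows of this length, 0.84% hold GATTCCCC, 7.40% TGACGC, 3.44% GAAANNGAAA and 37.4% ATTGG. The stretches with these motifs are printed for H2-K1, H2-D1 and H2-M3, which hold GATTCCCC, TGACGC and ATTGG in that order on the coding strand, and for B2m, which holds GAAANNGAAA and ATTGG. Whether the motifs held bear on the change of a gene in co-culture was not tested. The printed stretches lie at chr17:34000354-34000460 (minus strand), chr17:35262921-35263027 (plus), chr17:37270106-37270222 (plus) and chr2:122147543-122147643 (plus), and capitals mark the motifs on either strand. The stretch of H2-M3 holds 1 further match, to ATTGG on the other strand, and those of H2-K1 and H2-D1 hold 0.
H2-K1: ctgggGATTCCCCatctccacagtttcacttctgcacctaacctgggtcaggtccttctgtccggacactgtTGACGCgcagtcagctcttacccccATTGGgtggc
H2-D1: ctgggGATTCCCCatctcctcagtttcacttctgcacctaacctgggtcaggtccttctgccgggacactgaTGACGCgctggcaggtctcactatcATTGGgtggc
H2-M3: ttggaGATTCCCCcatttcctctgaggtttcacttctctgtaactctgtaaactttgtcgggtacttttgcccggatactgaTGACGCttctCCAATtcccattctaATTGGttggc
B2m: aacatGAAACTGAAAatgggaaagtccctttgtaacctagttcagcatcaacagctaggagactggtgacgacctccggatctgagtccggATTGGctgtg
A match is a description of letters and not a site of binding, and no factor was measured on these promoters.

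Genes with the pattern most like H2-K1 and Gm7030 were found among the tested genes outside the list, by the root mean square difference of centred log2 CPM over the 6 libraries. The 5 nearest to H2-K1 were Taf9b (0.15), Lyn (0.18), Gm11560 (0.19), Vav3 (0.21) and Gm14048 (0.24). Lyn, a Src-family kinase of blood cells, had 3.63 to 5.57 CPM in MS-5 only and 9.40, 35.1 and 12.7 CPM in MC1, MC2 and MC3. The 5 nearest to Gm7030 were Gm11814 (0.38), Gm33707 (0.41), Aldoart2 (0.46), Gm37116 (0.47) and AC102240.1 (0.47). Of these, 4 are processed pseudogenes and Aldoart2 is an aldolase gene known from the testis. Gm33707 had at most 0.36 CPM in MS-5 only and 25.6, 157 and 18.2 CPM in co-culture, and Aldoart2 had at most 0.20 CPM and then 13.3, 78.3 and 9.72 CPM. By the way they were chosen, all 5 were, like Gm7030, near 0 in MS-5 only and highest in MC2. The gene nearest to H2-T23, looked up after the values were seen, was Casp12 (0.05), and Mr1 was the fifth nearest (0.10). Likeness over 6 libraries says nothing of shared function.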

How the data were processed

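Paired reads were quantified by the authors with Kallisto 0.43.0 against mouse cDNA (GRCm38), and an estimated count and a TPM value were deposited for each transcript, in each library, without pooling. Estimated counts are not normalized between libraries, and the deposited TPM values allow for effective length. The deposited length and effective length were not tested. Of 118489 transcript identifiers, 116728 matched GENCODE M21 in version and length, and the other 1761 (0.476% to 0.562% of counts) were left out.

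The counts of a gene's transcripts were added and rounded. EdgeR's filterByExpr kept 13221 genes, which were scaled by TMM (factors 0.923 to 1.17) and tested without covariates by the quasi-likelihood test of edgeR (version 4.0.16 in R 4.3.3). P-values were adjusted by the Benjamini-Hochberg method over all genes tested, with a threshold of 0.1. The standard error (SE) was taken as the absolute log2 fold change over the root of F. The test was checked on simulated counts. Shared words of 31 bases were counted over the matched transcripts. Replicates differed by more than sampling noise, with a chi-square per degree of freedom from 35.7 to 217.

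Alternatives were DESeq2 size factors or library size, DESeq2's Wald test (1.42.0), limma (3.58.1) on log2(TPM + 0.5) and with 0.1 or 1 in place of 0.5, no filter, a replicate block, a term for the pair MO2 and MC3, leaving out each library, and thresholds of 0.05 and 0.01. H2-K1 without its transcripts at 0 in MS-5 only was added after the values were seen.

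The members, the gene lists and the tests were chosen with earlier results of these data known. Named in the text are the members, listed pathway genes past the threshold (at most 5 a list), the 5 most abundant leukocyte and stromal markers, and the 5 genes most like H2-K1 and Gm7030. All other genes named were chosen after their values were seen. Sleuth was not used here.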

Additional observations from a re-analysis of the deposited data

How the results depend on the processing

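Among the members listed by family, depth was lowest for H2-Q6, which was left out by the filter on low counts. H2-Q4 and H2-Q7 followed, at 39 to 107 counts per library. In MS-5 only, the pair picked for its rise was lower still, with 0 counts for Gm7030 and 1 for Gm8909. Counts past the threshold are given in the order all genes, members, other class I genes, peptide supply genes, regulators and leukocyte markers, where the reported values are 579, 2, 2, 1, 0 and 9, and class II genes were at 0 throughout. DESeq2's Wald test called 1268, 4, 6, 1, 1 and 11, and a term for MO2 and MC3 called 3999, 4, 6, 2, 4 and 11. Library size in place of TMM called 536, 1, 1, 1, 0 and 9. Limma on log2(TPM + 0.5) called 356, 1, 1, 0, 0 and 6, with a pseudocount of 0.1 it called 506, 1, 1, 0, 0 and 8, and with 1 it called 224, 0, 1, 0, 0 and 5. At a threshold of 0.05 edgeR called 2 genes in all, and at 0.01 it called 0, with 0 in each list at both. Leaving out 1 library gave 0 to 549 genes in all, 0 to 1 members, 0 to 3 other class I genes, 0 to 1 peptide supply genes and 0 to 10 leukocyte markers. All of these were at 0 without MO1, MO2 or MO3, and the peptide supply genes also without MC1 or MC2. Without MO1, MO2 or MO3 no gene at all was called, with 1478, 2819 and 1578 genes at an unadjusted p under 0.05, while leaving out MC1, MC2 or MC3 called 283, 281 and 549 genes in all. DESeq2 size factors and no filter on low counts kept the members at 2. The sign of each member's log2 fold change was that reported under every alternative, except for B2m, which turned to -0.095 without MO1 and to -0.0267 without MC2 (range from -0.095 to 0.326 over the libraries left out). H2-M3 passed in 11 and H2-T23 in 4 of 15 alternatives each. H2-K1 and H2-D1 passed in 2 each, by DESeq2's Wald test and with the term for MO2 and MC3. In no case was the cause of a changed call tested.

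The replicate numbers do not pair the samples. Deviations of same-numbered libraries correlated at 0.53 (MO1 and MC1), -0.29 (MO2 and MC2) and -0.52 (MO3 and MC3), so not every sample correlated best with its own number (MO2 and MC3 reached 0.73). With the number as a replicate block, 444 genes were called in all, 1 member, 1 other class I gene, 0 peptide supply genes, 0 regulators and 9 leukocyte markers. The member was H2-M3 (adjusted p = 0.0719 from edgeR), and H2-T23 had 0.176.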

Other observations

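Most MHC class II genes had few or no counts. Of 11 listed, 4 passed the filter on low counts, H2-DMa, H2-DMb1, H2-DMb2 and Cd74, and their log2 fold changes ran from -0.21 to 0.23. Among the 7 left out by the filter, H2-Aa had 0 counts in each MS-5 only library and 2, 20 and 4 in MC1, MC2 and MC3, H2-Oa had 0 and then 1, 2 and 1, and the other 5 had at most 7 in any library. EdgeR called 0 of the 4, with 0 at an unadjusted p under 0.05, and so did DESeq2 and limma. With no filter on low counts edgeR called 0 of 10, with 1 at an unadjusted p under 0.05. Cd74, the invariant chain of class II, had a mean of 18.8 CPM in MS-5 only and 16.3 CPM in co-culture.

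Ligands of NKG2D, an activating receptor of natural killer cells, are class I-like proteins made by stressed cells. Of 8 listed, 5 were in the tables and 4 could be tested. Ulbp1, named after its values were seen, had 42.3, 67.8 and 49.4 CPM in MS-5 only and 24.7, 26.9 and 41.6 CPM in co-culture. Every co-culture library was lower, but the log2 fold change of -0.78 ± 0.27 (SE, edgeR adjusted p = 0.245) did not pass. Raet1d and Raet1e, at means of 31.7 and 85.2 CPM in MS-5 only, had log2 fold changes of -0.31 and 0.0046, and both overlapped between the groups.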
